A study of Homo sapiens with 33 samples.

Results

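SCC25, an established cell line from a squamous cell carcinoma of the human tongue, was followed over 5 days of treatment with cetuximab, an antibody that binds the epidermal growth factor receptor (EGFR) and keeps ligands from activating it. The libraries were chosen by their labels, as SCC25 on days 1 to 5 with either 100 nM cetuximab or PBS, the untreated control. These were 10 of the 33 bulk mRNA-seq libraries of the series, 5 with cetuximab and 5 with PBS, and each cetuximab library was paired with the PBS library of the same day. Both arms were grown in DMEM with foetal bovine serum and hydrocortisone, media were renewed daily, and treatment started 24 h after seeding. There is 1 library for each treatment and day, so that the 5 days stand in for replicates and the p-values measure the spread of the change between these days, not between separate experiments. The PBS library of day 0 has no treated partner and was not used.

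EGFR is a receptor tyrosine kinase that is abundant on most head and neck squamous cell carcinomas. When a ligand such as amphiregulin or TGF-alpha binds, the receptor signals through RAS, RAF and MEK to the kinase ERK, which switches on early response transcription factors (EGR and AP-1 members), growth factor ligands and its own phosphatases and inhibitors. The same pathway drives keratinocytes to divide and holds back parts of their differentiation program, and blocking it in skin is known to alter keratins, chemokines and interferon-stimulated genes.

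The libraries held between 42018632 and 52144493 estimated counts with PBS and between 37242988 and 47043580 with cetuximab. The cetuximab library of day 3 stood apart from the others: its log2 level fell by 0.336 for each 10 percentage points of GC content of a gene, against slopes of -0.0305 to 0.104 in the cetuximab libraries of days 1, 2 and 5, -0.0613 on day 4 and -0.0152 to 0.146 with PBS. All 5 PBS libraries and the cetuximab libraries of days 1 and 2 were sequenced on 1 flow cell and the cetuximab libraries of days 3 to 5 on another, so that flow cell and late treatment cannot be told apart, and days 1 and 2 give the comparison within a flow cell, though with PBS in lane 1 and cetuximab in lane 2 of it. Mitochondrially encoded transcripts took 4.93% to 5.65% of counts with PBS and 5.25% to 6.08% with cetuximab. The epithelial origin of the line showed in its markers: all 10 squamous markers were expressed, with a summed level of 14159 to 20875 CPM with PBS and 16808 to 20266 CPM with cetuximab, and the keratins KRT5 (4668 to 6527 CPM with PBS and 5813 to 6562 CPM with cetuximab) and KRT14 (2837 to 4324 CPM with PBS and 2949 to 3954 CPM with cetuximab) were among them. The 10 blood cell markers summed to 168 to 237 CPM with PBS and 147 to 179 CPM with cetuximab, nearly all of it CD68, a lysosomal protein of macrophages that other cells also make (167 to 235 CPM with PBS and 146 to 177 CPM with cetuximab), while CD14 was at 1.87 CPM or less, PTPRC, the pan-leukocyte antigen, at 0.305 CPM or less and CD3E, a chain of the T cell receptor complex, at 0 in all 10 libraries. Levels are in CPM, counts scaled to library size and by the trimmed mean of M-values.

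Cetuximab and PBS differed for 5121 of 19101 genes tested (26.8%) in the fit paired by day, by edgeR's quasi-likelihood test at a Benjamini-Hochberg adjusted p under 0.05. 2412 genes (12.6%) were higher with cetuximab and 2709 (14.2%) were lower. Most of these differences were small, with a median size of 0.35 on the log2 scale, and 338 reached 1, 222 of them higher and 116 lower. The sign of the change was the same on all 5 days for 4889 of the called genes. Without the pair of day 2, 4 or 5 the count was 3105, 2908 or 3254, and 3496 genes were called when the days were not paired. For 2851 genes (14.9%) all 5 cetuximab libraries lay above or all lay below the 5 PBS libraries. Below, "rose" and "fell" are used of genes that passed this test, log2 fold changes are cetuximab over PBS with their SE, and the 5 values given for a treatment are in the order of days 1 to 5. Since RNA came from whole cultures, a change in the level within each cell and a change in the share of cells that express a gene cannot be told apart.

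Among called genes that averaged 3 or more on the log2 CPM scale and moved 1 way on all 5 days, the largest fall was that of EGR1, an early response transcription factor that ERK switches on (chromosome 5, 137801168 to 137804992 on GRCh37). Its level was 45.8, 67.02, 68.9, 94.7 and 77.2 CPM with PBS and 9.86, 14.9, 10.9, 15.4 and 13.9 CPM with cetuximab. Every cetuximab library lay below every PBS library, and the log2 ratio was -2.21 on day 1 and -2.47 on day 5 (log2 fold change -2.43 ± 0.085, adjusted p = 1.6e-05). MMP9, a gelatinase, was at 23.1, 24.03, 19.1, 17.3 and 17.4 CPM with PBS and 12.8, 9.501, 3.17, 4.701 and 4.09 CPM with cetuximab (log2 fold change -1.71 ± 0.22, adjusted p = 0.0013), and the treated level was lower on days 3 to 5 than on days 1 and 2. TFPI2, an inhibitor of serine proteases, was at 76.2, 74.4, 66.1, 53.99 and 38.8 CPM with PBS and 22.4, 21.9, 21.3, 20.4 and 19.2 CPM with cetuximab (log2 fold change -1.52 ± 0.11, adjusted p = 0.00012). The treated libraries hardly varied, and the arms came closer as the PBS level fell from day to day. MMP3, stromelysin 1, was at 9.64, 15.1, 21.1, 22.3 and 25.1 CPM with PBS and 4.38, 5.47, 7.78, 7.604 and 8.296 CPM with cetuximab (log2 fold change -1.44 ± 0.080, adjusted p = 4.2e-05), and its level in both arms was lowest on day 1.

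The other 8 of the 12 largest falls by this rule did not overlap between the arms. EREG, the EGFR ligand epiregulin, was at 16.8, 18.3, 24.2, 22.8 and 18.7 CPM with PBS and 6.93, 7.57, 9.85, 8.49 and 6.44 CPM with cetuximab (log2 fold change -1.36 ± 0.067, adjusted p = 2.7e-05). DUSP5 and DUSP6 are phosphatases that remove the activating phosphates of ERK and are themselves switched on by it. DUSP5 was at 45.2 to 59.6 CPM with PBS and 18.4 to 25.4 CPM with cetuximab (log2 fold change -1.34 ± 0.057) and DUSP6 at 78.8 to 97.1 CPM with PBS and 33.8 to 41.2 CPM with cetuximab (log2 fold change -1.22 ± 0.048). SLCO4A1, an organic anion transporter, fell by a similar amount (log2 fold change -1.37 ± 0.10), as did ADAM8, a membrane metalloproteinase (-1.33 ± 0.15), HS3ST1, a heparan sulfate sulfotransferase (-1.32 ± 0.095), CCNA1, a cyclin (-1.24 ± 0.11), and STMN3, a microtubule-destabilising protein (-1.22 ± 0.13). For SLCO4A1, ADAM8 and STMN3 the cetuximab library of day 3 held the lowest of the 10 values, and without the day 3 pair their log2 fold changes were -1.26, -1.14 and -1.09.

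The largest rise by the same rule was in KRT75, a keratin of the hair follicle (chromosome 12, 52817854 to 52828155), at 9.39, 9.52, 14.2, 22.2 and 32.2 CPM with PBS and 24.4, 36.9, 44.8, 81.8 and 109 CPM with cetuximab (log2 fold change 1.73 ± 0.083, adjusted p = 2.5e-05). The arms overlapped, as the level rose with the days in both, and on each day the treated library was higher than its PBS partner. COL3A1, the chain of collagen III, was at 12.6, 12.5, 15.2, 17.4 and 20.6 CPM with PBS and 30.7, 37.4, 42.3, 60.6 and 69.6 CPM with cetuximab (log2 fold change 1.58 ± 0.080, adjusted p = 2.9e-05) and did not overlap. LUM, the matrix proteoglycan lumican, was at 20.5, 20.2, 28.8, 39.9 and 38.5 CPM with PBS and 52.5, 65.1, 92.7, 108 and 106 CPM with cetuximab (log2 fold change 1.53 ± 0.062, adjusted p = 1.6e-05). SELENOP, a secreted selenoprotein, was at 37.99 to 119.5 CPM with PBS and 106 to 277 CPM with cetuximab (log2 fold change 1.57 ± 0.095), and EDIL3, a secreted integrin ligand, at 8.002 to 14.7 CPM with PBS and 22.1 to 37.7 CPM with cetuximab (log2 fold change 1.54 ± 0.10).

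**Figure D1:**
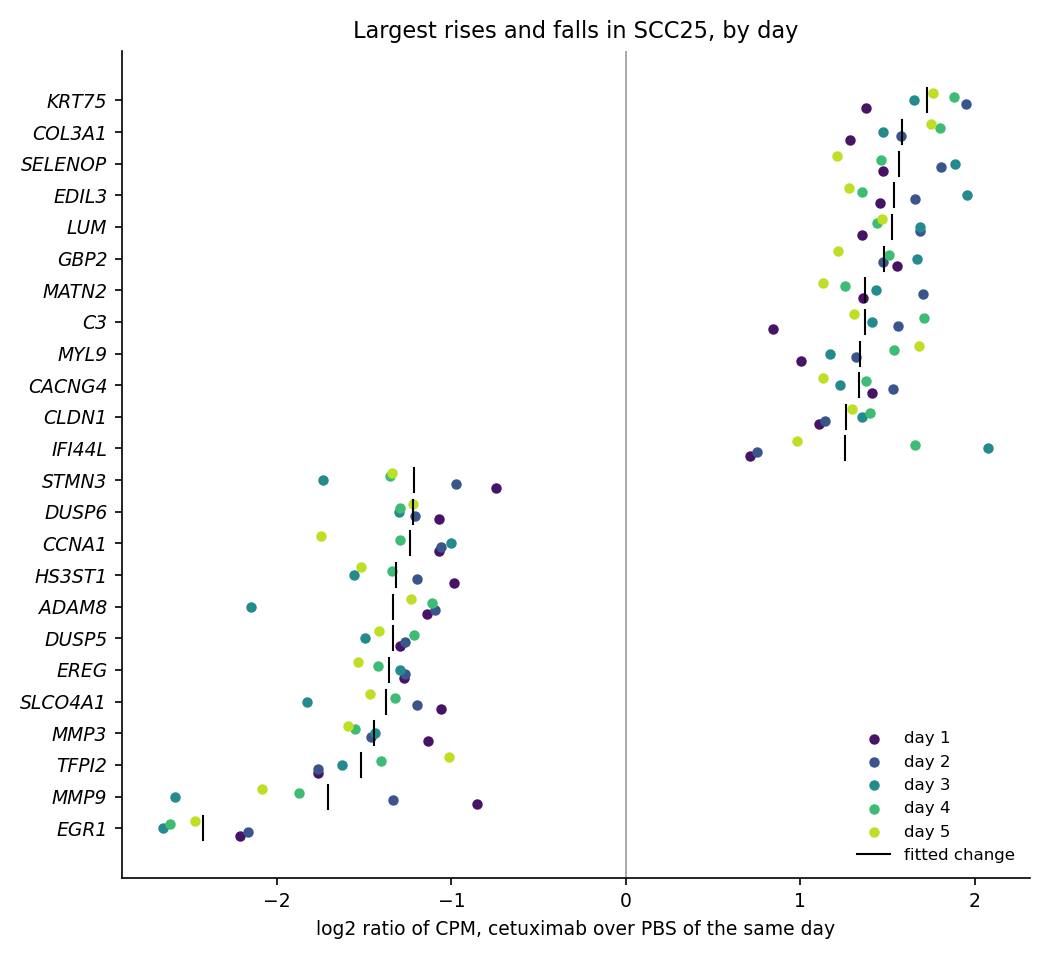
Log2 ratio of CPM of the cetuximab library over the PBS library of the same day (x axis) for the 12 largest rises and 12 largest falls in SCC25 (y axis), with 1 coloured point for each of days 1 to 5 and a black bar at the fitted log2 fold change. All points of a gene lie on 1 side of 0, which the choice of the genes required, and the fitted changes run from -2.43 for EGR1 to 1.73 for KRT75.

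The other large rises included genes of innate immunity, adhesion and contraction. GBP2, an interferon-inducible GTPase, was at 8.82, 9.94, 11.9, 15.6 and 20.6 CPM with PBS and 25.9, 27.6, 38.1, 44.4 and 47.8 CPM with cetuximab (log2 fold change 1.48 ± 0.072, adjusted p = 2.5e-05), with every treated library above every PBS library. C3, the central complement component, was at 20.2 to 38.02 CPM with PBS and 38.2 to 94.3 CPM with cetuximab (log2 fold change 1.37 ± 0.11), and CLDN1, a tight junction claudin, at 174, 185, 188, 191 and 200.2 CPM with PBS and 374, 408, 479, 506 and 493 CPM with cetuximab (log2 fold change 1.26 ± 0.053, adjusted p = 1.7e-05). The lowest treated value of CLDN1 was 374 CPM and the highest PBS value 200.2 CPM. MATN2, an oligomeric matrix adaptor, rose by 1.37 ± 0.079, MYL9, a myosin light chain of contractile cells, by 1.34 ± 0.095, and CACNG4, a calcium channel subunit, by 1.34 ± 0.076 on the log2 scale, all 3 without overlap. IFI44L, an interferon-stimulated gene, was at 3.58, 3.22, 4.299, 9.43 and 24.4 CPM with PBS and 5.87, 5.44, 18.2, 29.8 and 48.2 CPM with cetuximab (log2 fold change 1.26 ± 0.20, adjusted p = 0.0030), and its arms overlapped.

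Stretches before the start of 4 genes that these results turn on show the letters that transcription factors of the pathways described here are known to read. They are 300-base promoter windows of RefSeq on GRCh38.p14, from 250 bases before to 50 bases after the gene's start, with matches in capitals on either strand. EGR1 (largest fall, chr5:138465229-138465528, plus strand) is shown with its CArG boxes, the site of serum response factor. SERPINB2 (a serine protease inhibitor that fell, chr18:63887455-63887754, plus strand) is shown with the AP-1 letters TGANTCA. IFI44L (chr1:78620198-78620497, plus strand) stands for the interferon list with the letters GAAANNGAAA of the interferon-stimulated response element (ISRE). PLK1 (mitotic kinase, chr16:23678639-23678938, plus strand) stands for the mitosis list with TTTGAA, the letters of the cell cycle homology region (CHR).
EGR1: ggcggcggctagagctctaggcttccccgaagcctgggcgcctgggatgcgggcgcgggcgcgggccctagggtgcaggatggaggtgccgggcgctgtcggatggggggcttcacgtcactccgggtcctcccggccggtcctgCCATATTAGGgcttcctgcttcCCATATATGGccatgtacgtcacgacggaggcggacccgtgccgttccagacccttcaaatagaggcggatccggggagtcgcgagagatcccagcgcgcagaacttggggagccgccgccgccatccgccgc
SERPINB2: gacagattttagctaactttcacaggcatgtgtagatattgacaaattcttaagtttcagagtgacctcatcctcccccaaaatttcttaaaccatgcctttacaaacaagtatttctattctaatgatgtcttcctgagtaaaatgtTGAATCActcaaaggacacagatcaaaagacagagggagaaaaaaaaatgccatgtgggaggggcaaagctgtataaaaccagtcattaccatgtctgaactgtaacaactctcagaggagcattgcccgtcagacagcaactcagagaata
IFI44L: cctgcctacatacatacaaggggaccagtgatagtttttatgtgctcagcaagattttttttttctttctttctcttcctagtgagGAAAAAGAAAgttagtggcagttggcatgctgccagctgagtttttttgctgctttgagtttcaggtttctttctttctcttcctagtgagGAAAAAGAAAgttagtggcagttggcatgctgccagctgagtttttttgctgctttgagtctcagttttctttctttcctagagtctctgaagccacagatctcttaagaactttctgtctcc
PLK1: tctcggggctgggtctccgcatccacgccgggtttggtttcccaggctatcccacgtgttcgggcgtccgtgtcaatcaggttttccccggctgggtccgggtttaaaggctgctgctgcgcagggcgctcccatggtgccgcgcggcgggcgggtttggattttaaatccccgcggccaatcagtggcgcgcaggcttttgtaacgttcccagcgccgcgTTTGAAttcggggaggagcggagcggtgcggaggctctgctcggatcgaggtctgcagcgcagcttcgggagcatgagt

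Such matches are descriptions of letters, not of bound sites. CArG boxes were found in 2 of the 24 ERK output genes that had a window (8.33%), and in 1.29% of all 27305 windows. The 2 genes are EGR1, shown above, and SRF, which encodes serum response factor. The ISRE letters were in 17 of 27 windows of the interferon list (62.96%), in 7 of 13 of the antigen presentation list (53.8%) and in 3.65% of all windows. The CHR letters were in 26 of 37 windows of the mitosis list (70.3%) against 15.4% of all windows, and the letters CCAAT in 81.1% against 35.7%. The AP-1 letters were in 3 of 8 windows of the matrix protease list, those of MMP7, MMP10 and PLAUR. Only these 8 of its 17 tested genes had a window. The same letters were in 8.33% of the ERK output windows and in 7.76% of all windows. The motifs were chosen with the changes of these genes known.

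Of the 23 tested genes of the EGFR family, its ligands and 9 receptor inhibitors 8 fell and 5 rose (3 without the pair of day 1, 2 or 4). Over all genes 14.2% fell and 12.6% rose. EGFR itself, whose protein cetuximab binds, was at 1038, 1039.9, 1038, 1032 and 1067 CPM with PBS and 1086, 1097, 1089, 1149 and 1113 CPM with cetuximab and did not pass the test (log2 fold change 0.086 ± 0.036, adjusted p = 0.12). Every treated library was above every PBS library, by a log2 ratio of at most 0.15, on day 4. ERBB3, the family member with weak kinase activity that pairs with the others, rose, at 15.5 to 18.3 CPM with PBS and 22.5 to 24.6 CPM with cetuximab (log2 fold change 0.49 ± 0.051, adjusted p = 0.00052). ERBB2, the ligandless member, was at 46.2 to 51.9 CPM with PBS and 37.7 to 59.1 CPM with cetuximab (log2 fold change 0.068 ± 0.082, adjusted p = 0.58). In the fit with the GC trend removed all 3 of these receptors were called higher, so that the result for EGFR and ERBB2 depends on the processing.

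Of 11 ligands tested, 5 fell and 3 rose, against 14.2% and 12.6% of all genes. AREG, amphiregulin, was at 64.02, 79.9, 91.7, 80.1 and 85.2 CPM with PBS and 35.8, 39.1, 39.99, 34.9 and 34.9 CPM with cetuximab (log2 fold change -1.11 ± 0.068, adjusted p = 6.6e-05). HBEGF, heparin-binding EGF, was at 53.9 to 82.6 CPM with PBS and 25.5 to 42.3 CPM with cetuximab (log2 fold change -1.05 ± 0.050, adjusted p = 2.5e-05), and TGFA, TGF-alpha, at 84.3 to 95.1 CPM with PBS and 52.6 to 64.3 CPM with cetuximab (log2 fold change -0.58 ± 0.046, adjusted p = 0.00019). None of these 3 ligands overlapped between the arms, and nor did EREG. ERRFI1, an intracellular EGFR inhibitor that EGFR signalling induces, fell from 362 ± 62.96 CPM with PBS to 185 ± 25.5 CPM with cetuximab (SD, n = 5 each), with a log2 fold change of -0.96 ± 0.044.

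The ERK output list holds genes that rise when ERK is active. Of its 35 members 34 were tested, 21 fell and 2 rose, where 14.2% and 12.6% of all genes did. The median log2 fold change of the tested members was -0.59 against 0.0028 over all genes. All 4 phosphatases tested, all 3 EGR factors and all 3 ETS factors of the PEA3 group fell. DUSP4, a nuclear ERK phosphatase, was at 13.1, 13.4, 12.7, 11.8 and 13.4 CPM with PBS and 4.68, 4.498, 3.53, 4.27 and 3.98 CPM with cetuximab (log2 fold change -1.62 ± 0.083, adjusted p = 2.9e-05). EGR2 (log2 fold change -1.93 ± 0.20) and EGR3 (-1.79 ± 0.19) fell at levels of at most 2.73 and 3.54 CPM. ETV4 was at 33.9 to 51.3 CPM with PBS and 17.5 to 23.7 CPM with cetuximab (log2 fold change -1.08 ± 0.069), while the fall of ETV5 was smaller (-0.29 ± 0.078) and its arms overlapped.

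Of the 6 Sprouty and SPRED inhibitors, which dampen RAS signalling, SPRY2 (log2 fold change -1.05 ± 0.077, adjusted p = 0.00013) and SPRY4 (log2 fold change -0.68 ± 0.066, adjusted p = 0.00039) fell and the other 4 did not pass the test. Among 7 AP-1 subunits, 3 fell and 2 rose. FOSL1 was at 262, 327, 289, 293 and 279.5 CPM with PBS and 158, 158, 99.1, 122 and 136 CPM with cetuximab (log2 fold change -1.12 ± 0.10, adjusted p = 0.00030), with no overlap. FOS was at 7.22 to 15.04 CPM with PBS and 3.64 to 7.24 CPM with cetuximab (log2 fold change -0.96 ± 0.069, adjusted p = 0.00012). JUN did not pass the test over the 5 days, with a log2 fold change of -0.11 ± 0.11 and a level of 78.2 to 118 CPM with PBS and 65.1 to 106 CPM with cetuximab. MYC, the growth-promoting transcription factor, was at 412, 532, 580.2, 544 and 611 CPM with PBS and 286, 286, 226, 237 and 263 CPM with cetuximab (log2 fold change -1.04 ± 0.11, adjusted p = 0.00057). Its PBS level rose from day 1 to day 2 and stayed up, while the treated level was lower on days 3 to 5 than on days 1 and 2.

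Other early response genes also fell: IER3 (log2 fold change -0.94 ± 0.088, adjusted p = 0.00034), PHLDA1 (log2 fold change -0.61 ± 0.055, adjusted p = 0.00032) and, by a small amount and with overlap, the survival factor MCL1 (log2 fold change -0.13 ± 0.036, adjusted p = 0.029). CCND1, cyclin D1, was at 1193 to 1283 CPM with PBS and 1096 to 1259.8 CPM with cetuximab and did not pass the test (log2 fold change -0.072 ± 0.050, adjusted p = 0.33). In all, 16 of the 34 tested ERK output genes had every treated library below every PBS library, where 14.9% of all genes had no overlap in either direction. On days 1 and 2, 19 members fell and 2 rose, where 6.66% and 6.97% of all genes did. Without the day 3 pair 20 fell and 2 rose over the remaining 4 days.

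**Figure D2:**
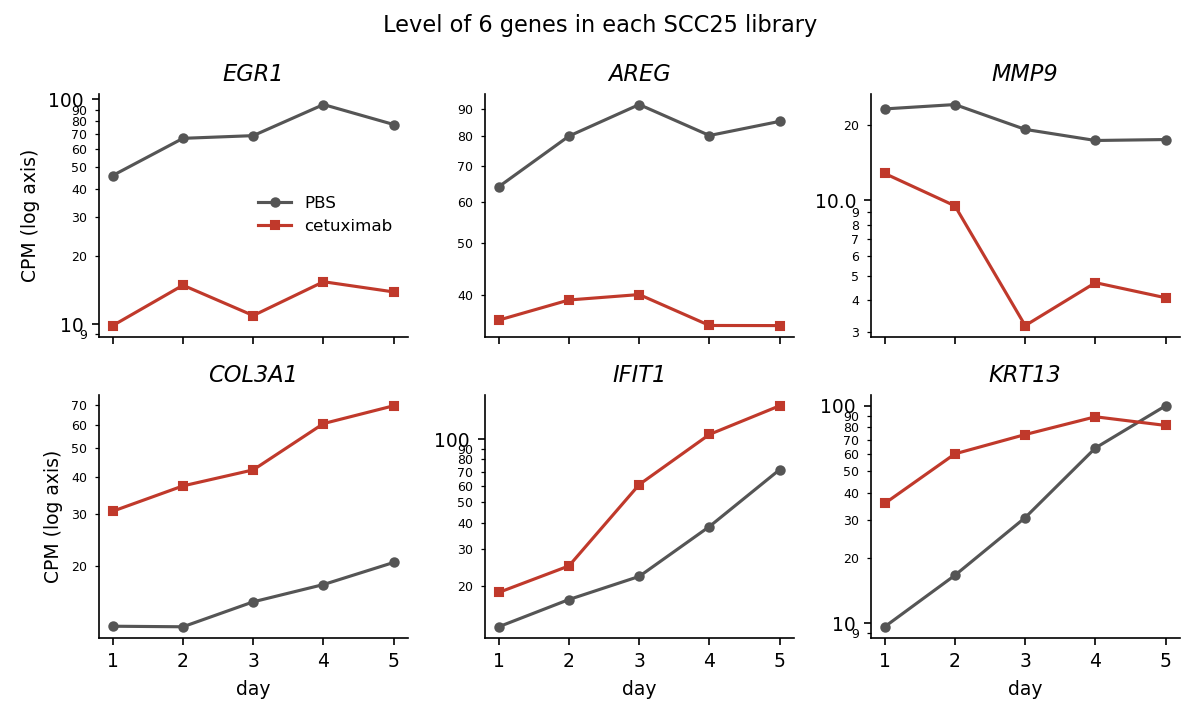
Level in CPM on a log axis (y) on days 1 to 5 (x) for 6 genes, with grey circles for PBS and red squares for cetuximab, 1 library each. EGR1, AREG and MMP9 are lower with cetuximab on each day and COL3A1 and IFIT1 higher on each day, while KRT13 starts higher with cetuximab (35.6 against 9.66 CPM) and is lower on day 5 (81.4 against 100.2 CPM).

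**Figure D3:**
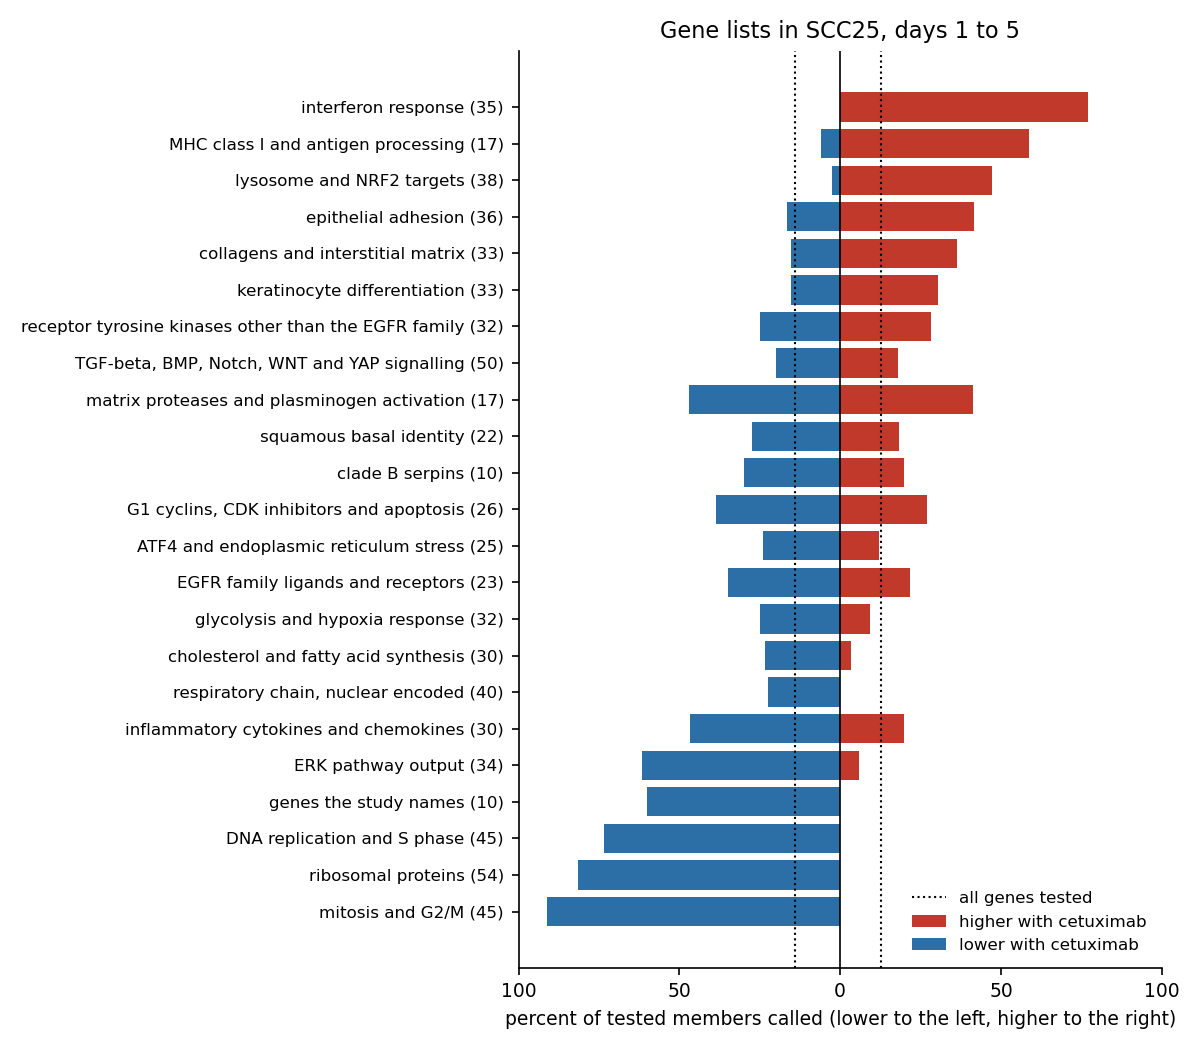
Percent of the tested members of each gene list that were called higher (red, to the right) or lower (blue, to the left) with cetuximab over days 1 to 5, with the number tested in brackets and dotted lines at the 12.6% and 14.2% of all genes. The lists for mitosis (41 of 45), ribosomal proteins (44 of 54) and DNA replication (33 of 45) had no member higher, and the interferon list had 27 of 35 members higher.

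Genes of cell division fell together by small amounts. In the list for mitosis and the G2 phase 41 of 45 tested members fell and none rose, where 14.2% of all genes fell. The median was -0.29 and the range from -0.59 to -0.11. All 12 cyclins and kinases fell. PLK1, a kinase of mitotic entry, was at 111, 123, 102, 102 and 90.6 CPM with PBS and 86.3, 89.8, 56.5, 70.9 and 60.96 CPM with cetuximab (log2 fold change -0.55 ± 0.067, adjusted p = 0.0010). CDC20, which activates the anaphase-promoting complex, was at 194 to 238 CPM with PBS and 115 to 176 CPM with cetuximab (log2 fold change -0.59 ± 0.077, adjusted p = 0.0014), and AURKB, the kinase of the chromosomal passenger complex, at 48.02 to 62.1 CPM with PBS and 31.5 to 44.4 CPM with cetuximab (log2 fold change -0.52 ± 0.054, adjusted p = 0.00051). These 3 genes had no overlap between the arms.

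The same list includes CCNB1 (-0.31 ± 0.040), CDK1 (-0.29 ± 0.043), AURKA (-0.36 ± 0.045), TPX2 (-0.34 ± 0.038), KIF20A (-0.30 ± 0.044) and FOXM1 (-0.33 ± 0.044), a transcription factor of G2 genes, all lower on the log2 scale. MKI67, the proliferation marker Ki-67, fell from 335 ± 43.2 CPM with PBS to 281 ± 29.9 CPM with cetuximab (SD, n = 5 each) (log2 fold change -0.25 ± 0.041), and TOP2A, topoisomerase II alpha, also fell (-0.25 ± 0.049). The level of MKI67 was lower on day 5 than on day 1 in both arms, and the arms overlapped. 10 of the 45 members had all treated libraries below all PBS libraries, where 14.9% of all genes had no overlap in either direction. On days 1 and 2, 27 members fell, where 6.66% of all genes did, and 23 were called lower over 5 days when the days were not paired.

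For DNA replication, 33 of 45 members fell and none rose, with a median log2 fold change of -0.25, where 14.2% of all genes fell. By role, 13 of 17 licensing and helicase genes, 13 of 14 polymerase and clamp genes and 7 of 14 genes of nucleotide synthesis and S phase control fell. UHRF1, which maintains DNA methylation at replication forks, had the largest fall among them, at 79.8 to 96.5 CPM with PBS and 50.2 to 71.05 CPM with cetuximab (log2 fold change -0.55 ± 0.053, adjusted p = 0.00036). MCM10 (log2 fold change -0.40 ± 0.050, adjusted p = 0.0010) and PCNA, the polymerase clamp (log2 fold change -0.23 ± 0.036, adjusted p = 0.0027), fell without overlap. MCM2 (-0.33 ± 0.057), CDC6 (-0.25 ± 0.053), RRM2 (-0.34 ± 0.053), TYMS (-0.16 ± 0.044) and E2F1 (-0.31 ± 0.075) fell as well. CCNE2, cyclin E2, was at 19.9 to 27.1 CPM with PBS and 19.9 to 26.1 CPM with cetuximab and did not pass the test (log2 fold change -0.023 ± 0.10, adjusted p = 0.89).

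For DNA replication the count fell to 19 without the day 4 pair and to 21 without the day 5 pair, and it was 18 when the days were not paired. CDT1, a licensing factor, was at 40.2, 45.7, 36.8, 39.2 and 43.9 CPM with PBS and 37.96, 42.4, 15.4, 26.7 and 28.3 CPM with cetuximab, with a log2 fold change of -0.095 on days 1 and 2 and -0.80 on days 3 to 5. POLD1, the catalytic subunit of polymerase delta, was at 48.6, 52.3, 43.3, 43.1 and 52.6 CPM with PBS and 47.5, 47.9, 19.3, 29.9 and 31.9 CPM with cetuximab, with -0.081 and -0.80. The difference between the periods did not pass its test for either (adjusted p = 0.11 and 0.084). The lowest value of both was in the cetuximab library of day 3, the one with the GC slope, whose part in these falls was not tested. Of the replication list 18 members fell on days 1 and 2 and 0 rose, with a median of -0.23, where 6.66% of all genes fell and 6.97% rose.

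Around the G1 phase, 4 of 5 cyclins and kinases fell, and 4 of 8 CDK inhibitors and RB family members rose. These counts and those of the BCL2 family below stand beside 14.2% of all genes lower and 12.6% higher. CDKN2B, the inhibitor p15, was at 33.5, 30.9, 34.6, 34.8 and 37.4 CPM with PBS and 47.02, 50.3, 53.01, 64.3 and 68.5 CPM with cetuximab (log2 fold change 0.71 ± 0.067, adjusted p = 0.00034), and no treated library fell within the PBS range. CDKN1B, p27, rose at the threshold (log2 fold change 0.20 ± 0.064, adjusted p = 0.0497), while CDKN1A, p21, was at 137 to 157 CPM with PBS and 103 to 149 CPM with cetuximab and did not pass the test. Over the whole list of 26 genes 7 rose, and 3 or 4 did without the pair of day 1, 2, 4 or 5. Of 13 BCL2 family genes 3 rose and 6 fell. The 3 that rose are BH3-only genes, which promote apoptosis: BMF (0.41 ± 0.11), BCL2L11, which encodes BIM (0.18 ± 0.052), and HRK (1.10 ± 0.15). None of the 3 was called when the days were not paired (adjusted p = 0.23, 0.19 and 0.092), and 1 BCL2 family gene rose without the pair of day 2 or 4. BMF was at 14.5, 16.3, 11.05, 10.5 and 9.47 CPM with PBS and 27.5, 22.7, 13.2, 11.5 and 10.95 CPM with cetuximab, so that its arms stood apart on days 1 and 2 and came close from day 3. Among the 6 falls were the survival genes BCL2 (-0.73 ± 0.12), at no more than 2.24 CPM, and BCL2L1, which encodes BCL-XL (-0.30 ± 0.061). The other falls are not named here, and the list also holds further genes that promote apoptosis. No shift towards apoptosis can therefore be read from the genes named.

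Ribosomal protein genes fell by small amounts. Of 54 tested 44 fell and none rose, with a median of -0.25, where 14.2% of all genes fell. 32 had every treated library below every PBS library, where 14.9% of all genes had no overlap in either direction. Their summed level was 29559 to 32969 CPM with PBS and 25677 to 26714 CPM with cetuximab, lower on all 5 days (exact two-sided permutation test within days, p = 0.0625, the smallest that 5 pairs allow). The count was 28, 29 and 29 without the pair of day 2, 4 or 5. The median log2 fold change was -0.26 on days 1 and 2 and -0.21 on days 3 to 5. RPLP0 (log2 fold change -0.26 ± 0.046, adjusted p = 0.0053), RPL18 (-0.37 ± 0.059) and RPS6 (-0.22 ± 0.050) fell, and RPL8 (-0.45 ± 0.11) and RPLP2 (-0.44 ± 0.12) fell more. RPL8 and RPLP2 had their lowest values, 554 and 168 CPM, in the cetuximab library of day 3. Many ribosomal protein genes have near-identical processed pseudogenes that can share their reads, so that single values are uncertain.

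Other housekeeping groups moved less, and their counts stand beside 14.2% of all genes lower and 12.6% higher. In the list of nuclear genes of the respiratory chain 9 of 40 fell and none rose, with a median of -0.083, and none was called on days 1 and 2. Without the pair of day 2, 4 or 5 the count was 2, 1 or 2. NDUFV1 (-0.29 ± 0.084), NDUFS3 (-0.24 ± 0.066) and SDHB (-0.29 ± 0.064) fell. Of 17 glycolysis genes 8 fell, including HK2, a hexokinase (log2 fold change -0.59 ± 0.052, adjusted p = 0.00027), and PFKM, a phosphofructokinase (log2 fold change -0.45 ± 0.041, adjusted p = 0.00032), both without overlap. LDHA, lactate dehydrogenase A (-0.084 ± 0.057), and the glucose transporter SLC2A1 (-0.052 ± 0.10) did not pass the test. Of 15 hypoxia response genes 3 rose, where 12.6% of all genes did, among them ADM, adrenomedullin (0.47 ± 0.10). NDRG1 (0.094 ± 0.091) and CA9 (0.0068 ± 0.22, at most 0.677 CPM) did not pass. Without the day 2 pair 5 genes of the whole list fell.

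In the list for cholesterol and fatty acid synthesis 7 of 30 fell (4 without the pair of day 2, 4 or 5) and 1 rose. Of all genes 14.2% fell and 12.6% rose. FASN, fatty acid synthase, was at 141, 166, 161, 158 and 177 CPM with PBS and 132, 127, 60.7, 100.1 and 104 CPM with cetuximab (log2 fold change -0.66 ± 0.16, adjusted p = 0.018), lowest in the cetuximab library of day 3. ELOVL6 (-0.45 ± 0.073) and the squalene epoxidase SQLE (-0.30 ± 0.054) fell without overlap. HMGCS1 (0.034 ± 0.067), INSIG1 (0.083 ± 0.069) and SCD (-0.22 ± 0.088) did not pass. Among 17 targets of ATF4, the transcription factor of amino acid shortage, 6 fell, among them STC2 (log2 fold change -0.67 ± 0.068, adjusted p = 0.00049), SHMT2 (log2 fold change -0.40 ± 0.049, adjusted p = 0.0010), PSAT1 (-0.31 ± 0.074) and ASNS (-0.25 ± 0.078). Of the 25 genes of that list 3 fell without the pair of day 2, 4 or 5, and 11 fell without that of day 1. PHGDH (-0.23 ± 0.13) and TRIB3 (-0.41 ± 0.14) did not pass, and nor did the chaperone HSPA5 (-0.062 ± 0.050).

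Interferon-stimulated genes rose in the paired comparison. 27 of 35 tested members rose and none fell, with a median of 0.52, where 12.6% of all genes rose and 14.2% fell. The medians of their log2 ratios were 0.37, 0.40, 0.55, 0.71 and 0.62 on days 1 to 5. IFIT1, which binds foreign RNA, was at 12.8, 17.3, 22.3, 38.4 and 71.6 CPM with PBS and 18.7, 24.97, 60.8, 105 and 144 CPM with cetuximab (log2 fold change 1.01 ± 0.15, adjusted p = 0.0023). The level rose from day to day with PBS too, and on each day the treated library was higher than its PBS partner. RSAD2, the antiviral enzyme viperin, was at 1.72, 2.04, 4.03, 8.38 and 17.8 CPM with PBS and 3.31, 6.600, 16.5, 28.4 and 33.9 CPM with cetuximab (log2 fold change 1.48 ± 0.17, adjusted p = 0.00081).

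This call rests on the pairing. No member of the interferon list had all treated libraries above all PBS libraries, and without the replicate block of days 0 of 35 were called. IFIT1 then had an adjusted p of 0.20. IFI6 was at 36.8, 16.5, 15.7, 20.2 and 55.8 CPM with PBS and 48.5, 30.4, 23.1, 61.3 and 98.9 CPM with cetuximab (log2 fold change 0.85 ± 0.15, adjusted p = 0.0055), and IFI27 rose by 0.64 ± 0.12. IRF9 (log2 fold change 0.52 ± 0.076, adjusted p = 0.0022), a transcription factor that carries the interferon signal to the nucleus, rose as well. ISG15, a ubiquitin-like protein, was at 20.4, 26.2, 32.7, 45.4 and 83.1 CPM with PBS and 27.5, 32.7, 27.2, 66.9 and 89.2 CPM with cetuximab and did not pass the test (log2 fold change 0.23 ± 0.11, adjusted p = 0.15), and on day 3 the treated library was below its PBS partner. MX1 stayed near 1 CPM or lower (0.591 to 1.11 CPM with PBS and 0.523 to 0.888 CPM with cetuximab) and did not pass. In the first period (days 1 and 2) 19 members rose and in the second (days 3 to 5) 29 rose, where 6.97% and 12.3% of all genes did. The difference between the periods passed its own test for no member. Without the day 3 pair 27 rose.

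For antigen presentation by MHC class I, 10 of 17 genes rose and 1 fell, where 12.6% and 14.2% of all genes did. The count higher was 2 when the days were not paired, 6 without the day 2 pair and 5 without the day 4 pair. B2M, the light chain, was at 869, 803, 828, 889.5 and 892 CPM with PBS and 929, 897, 1109, 1199 and 1357 CPM with cetuximab and did not overlap (log2 fold change 0.34 ± 0.074, adjusted p = 0.012). HLA-B (0.37 ± 0.088) and HLA-F (0.36 ± 0.066) rose. These heavy chains are near-identical in parts and differ between people, so that their counts are uncertain. TAP1, the peptide transporter (0.39 ± 0.056), and PSMB9, an immunoproteasome subunit (0.29 ± 0.054), rose.

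Inflammatory genes fell more often than they rose. Of 30 cytokines, chemokines and related genes 14 fell and 6 rose (3 without the pair of day 4 or 5), where 14.2% and 12.6% of all genes did. IL24, a cytokine of the IL-10 family, was at 5.32, 8.48, 12.5, 10.9 and 9.92 CPM with PBS and 1.47, 1.85, 2.098, 2.06 and 1.85 CPM with cetuximab (log2 fold change -2.30 ± 0.11, adjusted p = 2.7e-05). Its mean level kept it out of the largest falls above. IL11 (log2 fold change -1.17 ± 0.10, adjusted p = 0.00028) and the chemokine CCL20 (log2 fold change -1.14 ± 0.098, adjusted p = 0.00025) fell without overlap. IL1A (-0.55 ± 0.044), IL1B (-0.52 ± 0.064) and PTGS2, the inducible cyclooxygenase (-0.52 ± 0.045), fell with overlap. CXCL8, interleukin 8, was at 1.82, 3.44, 9.15, 10.5 and 14.8 CPM with PBS and 1.603, 3.09, 7.16, 7.71 and 7.84 CPM with cetuximab (log2 fold change -0.44 ± 0.12, adjusted p = 0.029), and its level rose with the days in both arms. CXCL14, a chemokine of normal epithelium, rose, at 13.7, 13.96, 14.7, 19.8 and 29.9 CPM with PBS and 27.3, 32.6, 35.6, 56.2 and 60.7 CPM with cetuximab (log2 fold change 1.20 ± 0.079, adjusted p = 8.7e-05), and IL6 rose by 0.30 ± 0.089. Of 5 vascular growth factors 4 fell, among them VEGFA at 255, 292, 351, 317 and 373 CPM with PBS and 181, 208, 215, 213 and 220.3 CPM with cetuximab (log2 fold change -0.60 ± 0.051, adjusted p = 0.00024).

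Keratinocyte differentiation genes were split. Of 49 listed genes 33 passed the filter on low counts, 10 rose and 5 fell, where 12.6% and 14.2% of all genes did. 6 of 10 suprabasal and stress keratins rose and none fell. KRT13, a keratin of the mucosal suprabasal layer, was at 9.66, 16.7, 30.7, 64.1 and 100.2 CPM with PBS and 35.6, 60.2, 73.9, 89.2 and 81.4 CPM with cetuximab (log2 fold change 1.01 ± 0.30, adjusted p = 0.041). The log2 ratio was 1.88 and 1.85 on days 1 and 2, and on day 5 the treated library was below its PBS partner (-0.30). KRT4, which pairs with KRT13 in filaments, was at 0.271, 0.391, 1.01, 2.100 and 7.29 CPM with PBS and 0.953, 2.06, 4.25, 6.802 and 5.29 CPM with cetuximab (log2 fold change 1.30 ± 0.40, adjusted p = 0.044). KRT16, a stress keratin, rose by 0.45 ± 0.11. KRT6A (0.067 ± 0.059), KRT10 (0.10 ± 0.083) and KRT1 (1.61 ± 0.71), the last at most at 1.23 CPM, did not pass. Without pairing by day KRT13, KRT4 and KRT16 were not called (adjusted p = 0.43, 0.50 and 0.27).

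Of the cornified envelope genes, IVL, involucrin, rose (log2 fold change 1.24 ± 0.16, adjusted p = 0.0012) at 0.312 to 1.100 CPM with PBS and 0.673 to 2.29 CPM with cetuximab, and SPRR1B fell (log2 fold change -1.26 ± 0.22, adjusted p = 0.0050) at no more than 1.12 CPM. S100A8 (0.44 ± 0.27) and S100A9 (0.19 ± 0.11) did not pass, and SPRR3, with counts in 1 library only, was not tested. KLK5, a protease of skin shedding, rose (log2 fold change 0.58 ± 0.059, adjusted p = 0.00049), while KLK7 (0.20 ± 0.12) and the crosslinking enzyme TGM1 (0.12 ± 0.24) did not pass. Of 7 transcription factors OVOL1 (-0.66 ± 0.14) and KLF4 (-0.31 ± 0.089) fell. The differentiation genes as a whole had 13 members higher and 1 lower on days 1 and 2, where 6.97% of all genes were higher and 6.66% lower. On days 3 to 5 they had 6 and 5, where 12.3% of all genes were higher and 17.6% lower. The difference between the periods passed its own test for none of them. Over the whole course 6 were higher without the pair of day 2 or 4.

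Of 22 basal genes 4 rose (2 without the day 2 pair) and 6 fell, where 12.6% and 14.2% of all genes did. KRT17 rose (log2 fold change 0.76 ± 0.090, adjusted p = 0.00090) and so did KRT15 (log2 fold change 0.71 ± 0.19, adjusted p = 0.028), whereas KRT5 (log2 fold change 0.22 ± 0.070, adjusted p = 0.051) and KRT14 (0.087 ± 0.084) did not pass. SOX2 rose slightly at low level (log2 fold change 0.39 ± 0.094, adjusted p = 0.019), and TP63, the master factor of basal keratinocytes, was at 556 to 733 CPM with PBS and 557 to 632 CPM with cetuximab and did not pass (log2 fold change -0.15 ± 0.069, adjusted p = 0.15). Hemidesmosome and basement membrane genes had 6 of 12 lower and 1 higher, with COL17A1 (log2 fold change -0.25 ± 0.045, adjusted p = 0.0055) lower without overlap and ITGB4 (-0.096 ± 0.11) not called. Among 10 clade B serpins, SERPINB2, an inhibitor of urokinase, was at 11.01, 13.9, 14.2, 12.2 and 11.4 CPM with PBS and 3.99, 3.03, 4.12, 4.01 and 2.87 CPM with cetuximab (log2 fold change -1.80 ± 0.11, adjusted p = 7.7e-05). SERPINB5 fell (log2 fold change -0.33 ± 0.045, adjusted p = 0.0015) and SERPINB13 rose (log2 fold change 0.97 ± 0.18, adjusted p = 0.0066), a call lost when the days were not paired (adjusted p = 0.094), while SERPINB3 (0.49 ± 0.27) and SERPINB4 (0.70 ± 0.30), near-identical copies, did not pass.

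Matrix genes rose and fell within the same list. Of 33 collagen and matrix genes 12 rose and 5 fell, where 12.6% and 14.2% of all genes did. 4 of 6 fibrillar collagens rose, among them COL3A1 and COL1A2 (log2 fold change 0.68 ± 0.072, adjusted p = 0.00054), and COL1A1 did not pass (log2 fold change 0.36 ± 0.13, adjusted p = 0.071), with its lowest value, 42.7 CPM, in the cetuximab library of day 3. DCN, the proteoglycan decorin, was at 4.37, 3.697, 5.76, 6.07 and 8.15 CPM with PBS and 10.9, 10.8, 10.8, 11.5 and 11.1 CPM with cetuximab (log2 fold change 1.02 ± 0.15, adjusted p = 0.0021). TNC, tenascin C, was at 846, 857, 722, 782 and 809 CPM with PBS and 1321, 1486, 1327, 1743 and 1746 CPM with cetuximab (log2 fold change 0.92 ± 0.076, adjusted p = 0.00022). FN1, fibronectin, fell, at 9735, 8355, 7475, 6939 and 6244 CPM with PBS and 6935, 5509.7, 4466, 4816 and 4602 CPM with cetuximab (log2 fold change -0.56 ± 0.053, adjusted p = 0.00034), and its level was lower on day 5 than on day 1 in both arms. THBS1 (-0.30 ± 0.056) and the basement membrane collagen COL4A1 (-0.23 ± 0.054) fell, and SPARC (0.51 ± 0.13) and COL12A1 (0.18 ± 0.049) rose by small amounts. POSTN (0.16 ± 0.19) did not pass.

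Fibroblast markers, some of which are also in the matrix list, moved with these genes. All 10 were tested, 5 rose (COL1A2, COL3A1, LUM, DCN and FAP) and 2 fell (PDGFRA and THY1). Their summed level was 187 to 237 CPM with PBS and 303 to 474 CPM with cetuximab, higher on all 5 days (exact two-sided permutation test within days, p = 0.0625, the smallest possible), and none of the 10 markers was at 0 throughout. The fibroblast receptors PDGFRA (0.770 to 1.58 CPM with PBS and 0.588 to 0.925 CPM with cetuximab) and PDGFRB (0.406 to 0.958 CPM with PBS and 0.461 to 0.827 CPM with cetuximab) stayed under 2 CPM in every library, and PDGFRB did not pass the test. Whether other cells had a part in these levels was not tested. The 8 endothelial markers summed to 15.7 to 19.1 CPM with PBS and 10.6 to 14.1 CPM with cetuximab.

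Of 17 matrix proteases and plasminogen activation genes 7 rose (4 without the pair of day 2 or 4) and 8 fell, where 12.6% and 14.2% of all genes did. 6 of 9 metalloproteinases rose and 2 fell, MMP3 and MMP9. MMP13, collagenase 3, was at 201, 206, 213, 225 and 248 CPM with PBS and 255, 265, 307, 370.0 and 374 CPM with cetuximab (log2 fold change 0.51 ± 0.060, adjusted p = 0.00090). MMP12 rose (log2 fold change 1.50 ± 0.22, adjusted p = 0.0022) and MMP1, interstitial collagenase, was at 61.99, 52.4, 68.7, 81.8 and 106 CPM with PBS and 53.7, 73.4, 122, 173 and 171 CPM with cetuximab (log2 fold change 0.58 ± 0.16, adjusted p = 0.028), below its PBS partner on day 1 and above it from day 2. MMP10 stayed under 1 CPM and did not pass. All 5 genes of the plasminogen activator system fell, among them the urokinase gene PLAU (log2 fold change -0.29 ± 0.053, adjusted p = 0.0060) and its receptor PLAUR (log2 fold change -0.47 ± 0.072, adjusted p = 0.0026). TIMP1, a metalloproteinase inhibitor, was at 77.04, 71.8, 62.6, 63.02 and 60.3 CPM with PBS and 58.6, 45.8, 28.8, 36.6 and 33.4 CPM with cetuximab (log2 fold change -0.76 ± 0.093, adjusted p = 0.0010), and TIMP3 (0.053 ± 0.048) did not pass.

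In the list of 36 epithelial adhesion genes, which includes regulators of epithelial-mesenchymal transition, 15 rose and 6 fell, where 12.6% and 14.2% of all genes did. On days 1 and 2 the counts were 10 and 3, where 6.97% and 6.66% of all genes were called. On days 3 to 5 they were 14 and 11, where 12.3% and 17.6% were. The difference between the periods passed its own test for no member. 6 of 10 tight junction genes rose, with MARVELD3 (log2 fold change 0.66 ± 0.083, adjusted p = 0.0012), OCLN (0.54 ± 0.13) and CLDN4 (0.46 ± 0.11) beside CLDN1. CDH1, E-cadherin, was at 233, 239.7, 252, 297 and 324 CPM with PBS and 293, 323, 356, 422 and 428 CPM with cetuximab (log2 fold change 0.43 ± 0.040, adjusted p = 0.00032). DSG3 (0.47 ± 0.061), DSC3 (0.21 ± 0.043) and PERP (0.39 ± 0.043), which belong to desmosomes, rose, and DSP (-0.018 ± 0.042) and EPCAM (-0.054 ± 0.040) did not pass. Of the 14 adherens junction genes and regulators of the transition in this list 4 rose, 3 fell and 7 did not pass. On the mesenchymal side, VIM, vimentin, was at 1157, 1199, 962, 813 and 712 CPM with PBS and 863, 850.3, 576, 625 and 581 CPM with cetuximab (log2 fold change -0.47 ± 0.063, adjusted p = 0.0016). It was lower on day 5 than on day 1 in both arms. The arms of VIM overlapped, and it was not called when the days were not paired. SNAI2, a repressor of E-cadherin, was at 184 to 225 CPM with PBS and 147 to 161 CPM with cetuximab (log2 fold change -0.42 ± 0.048, adjusted p = 0.00075).

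A list of 10 genes (the growth factor receptors EGFR, ERBB2, FGFR1 and IGF1R, with AXL, MYC, TFAP2A, TGFBR3, VEGFA and VIM), which the study itself names, were taken as a list. The list was taken from the study of these same samples, and its count is not offered as independent evidence. Of these 6 fell (MYC, AXL, VEGFA, TGFBR3, VIM and FGFR1) and none rose. In the fit with the GC trend removed 7 were called lower and 2 higher. AXL, a receptor tyrosine kinase of the TAM family, was at 219.6, 225, 202, 174 and 154 CPM with PBS and 153, 139, 108, 118 and 116 CPM with cetuximab (log2 fold change -0.61 ± 0.068, adjusted p = 0.00069), with no overlap. TFAP2A was at 57.4, 62.6, 57.3, 60.5 and 63.3 CPM with PBS and 59.2, 58.7, 50.5, 58.9 and 54.3 CPM with cetuximab and did not pass the test (log2 fold change -0.098 ± 0.051, adjusted p = 0.19). TGFBR3, betaglycan, fell (log2 fold change -0.57 ± 0.080, adjusted p = 0.0019), and so did FGFR1 (-0.30 ± 0.076), while IGF1R did not pass (log2 fold change -0.11 ± 0.039, adjusted p = 0.075).

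In the list for receptor tyrosine kinases outside the EGFR family 9 of 32 genes rose and 8 fell, where 12.6% and 14.2% of all genes did. Not all of the 32 are receptors, as the list includes ligands of the TAM family and the insulin and IGF axis. In the insulin and IGF axis 5 of 10 rose, INSR among them (log2 fold change 0.22 ± 0.066, adjusted p = 0.038), and none fell, with 2 higher when the days were not paired, 3 higher and 1 lower without the day 2 pair, and 4 higher and 1 lower by DESeq2. On days 3 to 5, 3 of the 10 rose and 3 fell, where 12.3% and 17.6% of all genes did. FGFR2 rose (log2 fold change 0.29 ± 0.050, adjusted p = 0.0050), FGFR4 fell (log2 fold change -0.66 ± 0.16, adjusted p = 0.018), and FGFR3 did not pass (0.12 ± 0.11). KIT rose (log2 fold change 1.26 ± 0.17, adjusted p = 0.0014) at levels up to 3.701 CPM. MET, the hepatocyte growth factor receptor, was at 253, 239.5, 271, 255 and 239 CPM with PBS and 205, 201, 238, 223 and 215 CPM with cetuximab (log2 fold change -0.22 ± 0.038, adjusted p = 0.0051), and MERTK fell (-0.71 ± 0.13) at 3.07 CPM or less. IRS2 (-0.32 ± 0.12) and IGFBP3 (-0.11 ± 0.13) did not pass over the 5 days.

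In the list for TGF-beta, BMP, Notch, WNT and YAP signalling 9 of 50 rose and 10 fell (5, 6 and 6 without the pair of day 2, 4 or 5), shares near the 12.6% and 14.2% of all genes. On days 1 and 2 16 rose and 6 fell, where 6.97% and 6.66% of all genes did. On days 3 to 5 9 rose and 17 fell, where 12.3% and 17.6% of all genes did. The difference between the periods passed its own test for only 1 of the 50. TGFB2, a TGF-beta ligand, was at 40.4, 40.8, 47.8, 49.5 and 40.7 CPM with PBS and 82.01, 84.5, 105, 109 and 107 CPM with cetuximab (log2 fold change 1.15 ± 0.060, adjusted p = 3.0e-05), with the lowest treated value above the highest PBS value. INHBA, which encodes activin A, fell, at 173, 204, 248, 229 and 199 CPM with PBS and 118, 124, 166, 134 and 122 CPM with cetuximab (log2 fold change -0.67 ± 0.046, adjusted p = 0.00010). Among WNT genes, WNT4 (log2 fold change 1.18 ± 0.15, adjusted p = 0.0012) and the feedback target AXIN2 (1.18 ± 0.22, at most 0.910 CPM) rose, and the antagonist DKK1 fell (log2 fold change -0.30 ± 0.050, adjusted p = 0.0042). HES1, a Notch target, fell slightly (-0.21 ± 0.056), and NOTCH3 (0.35 ± 0.20), ID1 (-0.26 ± 0.22), ID3 (0.32 ± 0.16) and the YAP targets CTGF (0.040 ± 0.098) and CYR61 (-0.071 ± 0.055) did not pass.

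Lysosomal genes and targets of NRF2, the factor of the oxidative stress response, rose in 18 of 38 cases and fell in 1, where 12.6% and 14.2% of all genes did. The count higher was 9 without the pair of day 2 or 4 and 10 when the days were not paired. LAMP2, a lysosomal membrane protein, was at 218 to 258 CPM with PBS and 252 to 319 CPM with cetuximab (log2 fold change 0.30 ± 0.039, adjusted p = 0.0014). AKR1C2 (log2 fold change 0.82 ± 0.082, adjusted p = 0.00046) and AKR1C3 (log2 fold change 0.67 ± 0.064, adjusted p = 0.00036), aldo-keto reductases, rose, as did AKR1B10 (0.68 ± 0.13) and NQO1 (log2 fold change 0.17 ± 0.041, adjusted p = 0.018). AKR1C1 rose by 0.30 ± 0.079, and since AKR1C1 and AKR1C2 share most of their sequence their reads could be split in more than 1 way. CTSD, cathepsin D, was at 552, 647, 617, 707 and 859 CPM with PBS and 851, 982, 493, 811 and 811 CPM with cetuximab and did not pass (log2 fold change 0.20 ± 0.13, adjusted p = 0.30), and nor did SQSTM1 (0.069 ± 0.063) and TXNRD1 (-0.015 ± 0.059).

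The change within days 1 and 2, on 1 flow cell, was tested apart from that of days 3 to 5. Of all genes 1331 rose (6.97%) and 1273 fell (6.66%) on days 1 and 2, and 2355 rose (12.3%) and 3364 fell (17.6%) on days 3 to 5. Of the genes called on days 1 and 2, 1766 (67.8% of these and 30.9% of those of days 3 to 5) were called in both periods, 1731 with the same sign. The periods share the fit and the estimate of the spread. On days 1 and 2 the count was 257, 165 or 4690 without the pair of day 1, 2 or 3, and on days 3 to 5 it was 2801 without that of day 5.

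**Figure D4:**
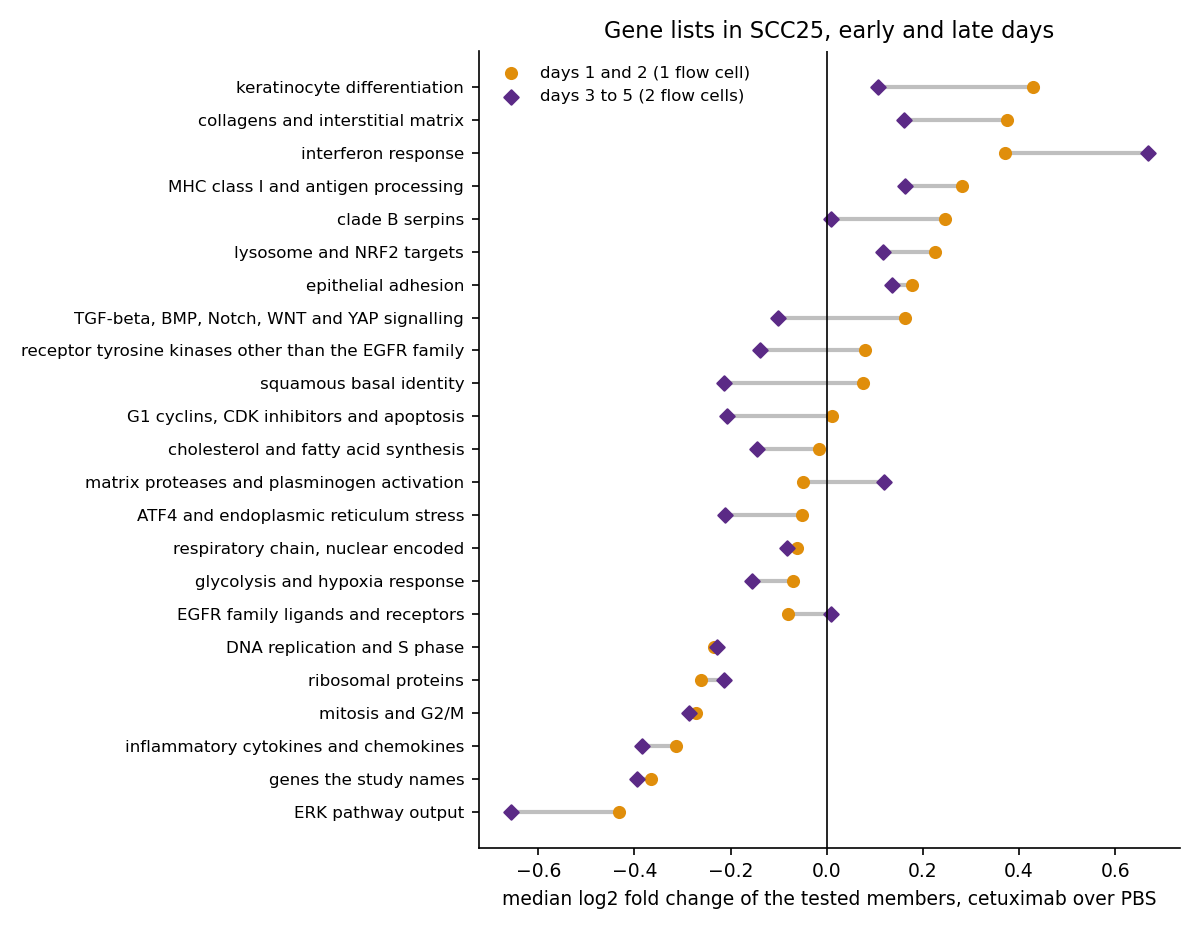
Median log2 fold change of the tested members of each gene list (x axis) on days 1 and 2 (orange circles) and on days 3 to 5 (purple diamonds), joined by a grey line. The median of the ERK output list was -0.43 and then -0.66, that of the interferon list 0.37 and 0.67, and that of keratinocyte differentiation 0.43 and 0.11. The difference between the periods passed its test for 1 ERK output gene and for no member of the other 2 lists.

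The difference between the periods was called for 56 genes (0.293%), 8 with a higher value on days 3 to 5 and 48 with a lower one. Among those of at least moderate level, the smallest p were those of CTD-2369P2.12, ALPP, TM9SF1 and FAM43A. ALPP, placental alkaline phosphatase, was at 53.6, 66.1, 81.96, 111 and 151 CPM with PBS and 192, 202, 136, 191 and 199 CPM with cetuximab, a log2 fold change of 1.72 on days 1 and 2 and 0.63 on days 3 to 5 (difference -1.09 ± 0.13, adjusted p = 0.028). Its PBS level rose from day to day, and the treated level was lowest on day 3. TM9SF1, an endosomal membrane protein, went from 0.30 to -0.38, FAM43A from 0.26 to -0.75 and CTD-2369P2.12, named after a genomic clone, from -1.09 to 0.70 (adjusted p of each difference 0.028). Of the listed signalling genes ID1, an inhibitor of differentiation that BMP induces, was at 23.3, 35.3, 60.2, 81.2 and 109 CPM with PBS and 30.2, 52.02, 33.8, 61.8 and 55.2 CPM with cetuximab and went from 0.47 to -0.73 (adjusted p of the difference 0.033), and IRS2, an adaptor of the insulin receptor, from 0.044 to -0.57 (adjusted p 0.047). The difference was also called for 1 AP-1 subunit, not named here, with the lower value on days 3 to 5. The cetuximab libraries of days 3 to 5 shared a flow cell that those of days 1 and 2 did not. The count of 56 became 0, 0, 1051, 922 and 5 without the pair of day 1, 2, 3, 4 and 5.

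A steady trend of the change over the 5 days was called for 1 gene, 1686 having an unadjusted p under 0.05. DESeq2 called 68. The gene was HIST2H2AA3, a histone with a near-identical neighbouring copy and a mean level under 1 CPM, named after its values were seen. The 4 genes of at least moderate level with the smallest p were not called by edgeR. They were IGFBP3 (-0.25 ± 0.024 on the log2 scale per day, adjusted p = 0.10), KRT13 (-0.58, adjusted p = 0.18), THBD, thrombomodulin (-0.29), and KRT19 (-0.36, adjusted p of both 0.20). IGFBP3, which binds insulin-like growth factors, was at 210.2, 255, 321, 451 and 549 CPM with PBS and 282, 275, 294, 352 and 366 CPM with cetuximab: its PBS level rose more steeply than the treated one. Without the day 3 pair 2161 genes were called, and without any other pair none was.

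The change in SCC25 was set against that of the other 2 lines of the series in 1 fit over the 30 libraries of days 1 to 5. By their labels SCC6 has 2 cetuximab libraries of day 2 and none of day 1. All 5 cetuximab libraries of SCC1 were on 1 flow cell and 4 of its 5 PBS libraries on another, and in SCC6 the cetuximab libraries of days 4 and 5 and the PBS library of day 1 were each on a flow cell apart from the rest, so that in these lines too treatment and flow cell cannot be fully told apart. The change in SCC25 differed from the change in SCC1 for 2996 of 21414 genes (14.0%) and from that in SCC6 for 7207 (33.7%). The larger change lay in SCC1 for 2644 of the former and in SCC6 for 6237 of the latter. 1557 genes differed from both lines, and 89 of them were called in SCC25 with a larger change than in either. Genes named here by other parts of the rule that are among these 89 are FGFR4, MARVELD3, NDUFV1, PSAT1 and STC2. STC2, stanniocalcin 2, had log2 fold changes of -0.66 in SCC25, -0.038 in SCC1 and 0.27 in SCC6, and FGFR4 -0.66, 0.25 and 0.14.

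EGR1 fell in all 3 lines and least in SCC25, with log2 fold changes of -2.42 in SCC25, -3.68 in SCC1 and -4.46 in SCC6 (adjusted p of the difference from SCC25 0.0033 and 2.2e-05). MMP3 changed by -1.44 in SCC25 and -4.04 in SCC1, a difference with adjusted p 2.7e-05, and by -1.49 in SCC6 (adjusted p 0.94). MMP9 changed by -1.70 in SCC25 against -3.18 and -0.51 (adjusted p 0.0013 and 0.015), and SLCO4A1 by -1.37 against -2.45 and -2.50 (adjusted p 0.0011 and 0.00048). EREG differed from SCC6 (-3.03, adjusted p 0.0035) and did not pass against SCC1 (-1.30, adjusted p 0.96), with -1.35 in SCC25. TFPI2 changed by -1.51 in SCC25 and by -1.96 in SCC6 (adjusted p of the difference 0.073). In SCC1, where its mean was 0.0836 CPM with PBS, the change was 1.25 (adjusted p 0.044), and it differed from that in SCC25 (adjusted p of the difference 0.00077).

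**Figure D5:**
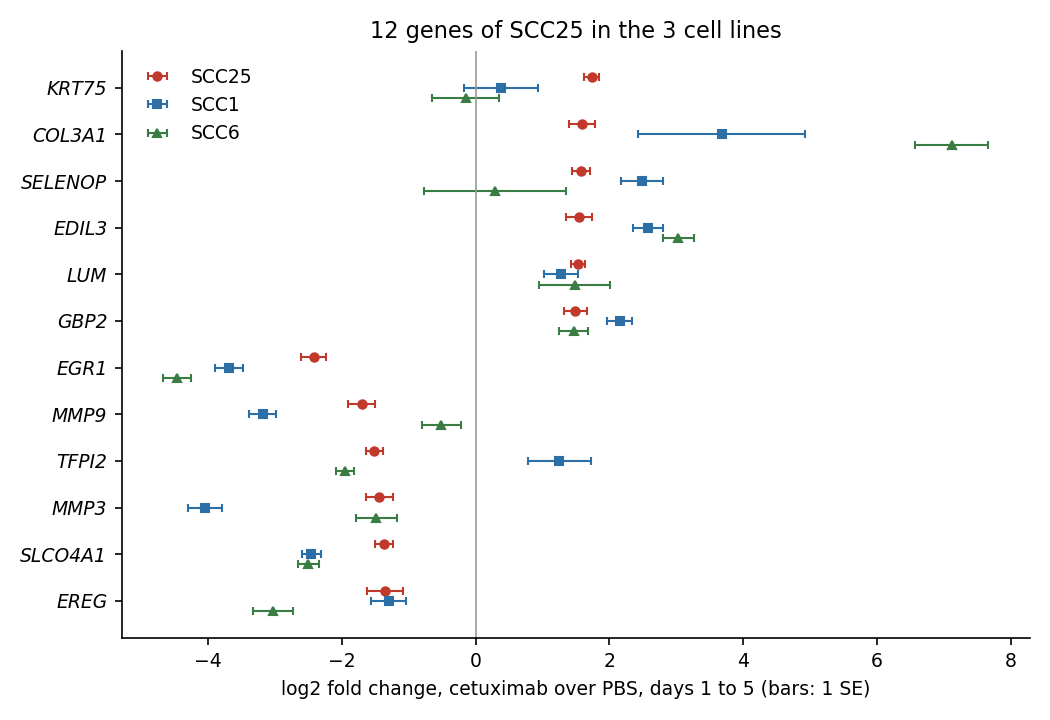
Log2 fold change of cetuximab over PBS (x axis, bars 1 SE, 5 libraries per arm, with 2 libraries of day 2 and none of day 1 in the cetuximab arm of SCC6) for the first 6 rises and first 6 falls of SCC25 (y axis), in SCC25 (red circles), SCC1 (blue squares) and SCC6 (green triangles). EGR1 lies furthest left in SCC6 (-4.46), and COL3A1 lies at 1.59 in SCC25 and 7.12 in SCC6.

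Several of the genes that rose in SCC25 were near 0 in the other lines, where the size of a ratio is imprecise. KRT75 had a mean of 17.2 CPM with PBS in SCC25, 0.0440 in SCC1 and 0.106 in SCC6, and its change differed from that in SCC6 (adjusted p 0.016) and did not pass against SCC1 (adjusted p 0.18). COL3A1 went from 0.0314 to 5.37 CPM in SCC6, a larger rise on the log2 scale than in SCC25 (adjusted p 8.7e-06). EDIL3 rose in all 3 lines and least in SCC25 (1.54 against 2.58 and 3.03, adjusted p 0.024 and 0.00095). GBP2 changed by 1.49 in SCC25, 2.15 in SCC1 and 1.46 in SCC6 (adjusted p of the differences 0.085 and 0.96), and SELENOP and LUM, with means of at most 1.07 and 0.520 CPM in SCC1 and SCC6, did not pass against either line.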

How the data were processed

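Poly(A)-selected RNA of SCC25 cultures was sequenced as 1 library for each treatment and day. The authors deposited 1 table of estimated counts per gene symbol for all 33 libraries, which Salmon version 0.8.2 (named in the submitters' processing notes) and tximport (named in the study's methods) had produced from the reads. The genome names hg19 and GRCh37 stand in those notes without a role, and the annotation release is not given in the sources used here. Columns were joined to samples by the flow cell, lane and index in the sample titles. The deposited estimated counts were rounded to whole numbers and not otherwise changed.

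Genes of low count were left out by filterByExpr of edgeR version 4.0.16 (R version 4.3.3), libraries were scaled by the trimmed mean of M-values, and cetuximab was compared with PBS by the quasi-likelihood test with day as a block and Benjamini-Hochberg adjustment at 0.05. Further fits gave days 1 and 2, days 3 to 5, their difference, a linear trend over days, and the difference from SCC1 and SCC6 (day labels as given within each line). Day was kept as a block as the days of both arms match in the labels, and because deviations of same-day libraries from their group means correlated. Over 10311 genes Pearson's r was 0.23, 0.56, 0.52, 0.51 and 0.59 on days 1 to 5, a description across genes. On days 2 to 5 the cetuximab library correlated best with the PBS library of its own day. That of day 1 correlated better with the PBS library of day 2 than with its partner. Single sums were compared by an exact permutation test over the 32 exchanges of treatment within days. The scripts were tested on simulated data.

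Alternatives were DESeq2 version 1.42.0, its size factors, no filter on low counts, no block, removal of a GC trend (spline with 5 degrees of freedom), and leaving out each day pair. GC content and GRCh37 positions came from GENCODE by symbol, and promoters from RefSeq on GRCh38.p14. Genes were named by rule: the 12 largest called rises and falls that averaged 3 or more in log2 CPM with 1 sign on all 5 days, fixed anchors and the 3 largest called changes in each of 23 gene lists, the 4 smallest p for the difference and the trend, and the first 6 rises and falls for the comparison of lines. Cell type markers were named beside these, and HIST2H2AA3 after its values were seen. A few genes that the rule picks are not reported here. The libraries, gene lists and motifs were chosen with earlier results of these data known. Counts of 37242988 to 52144493 per library set the precision of low genes; intervals for single libraries were not computed.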

Additional observations from a re-analysis of the deposited data

Results flagged for a closer look

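In 16 of 472 groups of 5 libraries tested for the genes named here, 1 library lay far from the other 4 by Dixon's criterion, where chance alone gives about 1 in 20 groups. The cetuximab library of day 3, which has the GC slope described above, was that library in 9 of the 16 cases. It held the lowest treated value of the alkaline phosphatase ALPP (135.6 CPM), the survival gene BCL2L1 (65.09 CPM), the CDK inhibitor CDKN1A (103.4 CPM), the basement membrane collagen COL4A1 (342.1 CPM), the receptor FGFR3 (14.2 CPM), the integrin ITGB4 (401.9 CPM), the basal keratin KRT14 (2949 CPM), the transporter SLCO4A1 (10.72 CPM) and the autophagy receptor SQSTM1 (424.2 CPM). The part of the GC slope in these values was not tested. On day 1 with cetuximab the licensing factor CDC6 was at 78.72 CPM and the desaturase SCD at 295.5 CPM. On day 5 with PBS the kinase CDK1 was at 109.7 CPM, EGFR at 1067 CPM, HLA-F at 44.98 CPM and KRT4 at 7.293 CPM. SPRR3 was at 0.02177 CPM on day 5 with cetuximab and at 0 in the other 4 treated libraries.

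The change with cetuximab differed between SCC25 and another line for 9 of the 12 genes compared, given here as the log2 fold change in SCC25 less that in the other line. Against SCC6 the difference was 1.88 for KRT75, -5.54 for COL3A1, -1.49 for EDIL3, 2.04 for EGR1, -1.19 for MMP9, 1.13 for SLCO4A1 and 1.67 for EREG. Against SCC1 it was -1.04 for EDIL3, 1.26 for EGR1, 1.48 for MMP9, -2.76 for TFPI2, 2.60 for MMP3 and 1.09 for SLCO4A1. The differences of KRT75, COL3A1 and TFPI2 rest on levels near 0 in the other line.

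Between the periods the log2 fold change on days 3 to 5 less that on days 1 and 2 was -1.09 for ALPP, 1.79 for CTD-2369P2.12, -1.01 for FAM43A, -1.20 for ID1, -0.61 for IRS2 and -0.67 for TM9SF1, all past the test. For HIST2H2AA3, at a mean log2 CPM under 0, the fitted difference was 14.46 and the trend 5.10 per day, sizes that depend on libraries at 0 and are not estimates of a fold. The cetuximab libraries of the later period were on another flow cell, which cannot be told apart from the period.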

How the results depend on the processing

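The count of 5121 genes over days 1 to 5 was between 2908 and 4816 when a day pair was left out. It was 338 when a log2 fold change of at least 1 in size was also required, and 3496 with no replicate block. The days 1 and 2 term of the fit with separate periods, which uses all 10 libraries, gave 2604. Over days 1 to 5 DESeq2 called 4268 and the fit with the GC trend removed 6950 genes. The share of called genes that were higher ranged from 42.4% to 52.2% over the alternatives. In SCC25 the fits with the GC trend removed tested only the 15942 genes with a known GC content. Those with no filter tested 39914 genes and the main fit 19101, so that these counts come from unlike sets of genes. For days 1 and 2 the count of 2604 became 1388 with no replicate block and 4680 with the GC trend removed, and 165 to 4690 with a day pair left out. For days 3 to 5 it was 2801 to 5301 with a pair left out. The difference between the periods, 56 genes, became 474 with DESeq2, 33 with its size factors, 1824 with no filter on low counts, 206 with the GC trend removed, 0 without the block and 0 to 1051 with a pair left out. The linear trend, 1 gene, became 68, 21 and 84 with DESeq2, no filter and the GC trend removed, 0 without the block and 0 to 2161 with a pair left out. The comparisons with SCC1 and SCC6 fell to 1824 and 3750 genes without the block. The cause of these shifts was not tested.

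Of 171 named genes called over days 1 to 5, none reversed its direction under any alternative run. DESeq2 lost 8 of the 169 calls for which it gave an adjusted p, the GC removal 1, no filter 5, leaving the days unpaired 50, and leaving out some day pair 41. The days 1 and 2 term of the fit with separate periods lost 45. The genes not called when the days were not paired were AKR1B10, AKR1C1, ASNS, BCL2L11, BMF, CDK1, CDKN1B, CDT1, CLDN4, CXCL8, DSC3, DSG3, E2F1, FGFR4, HES1, HLA-B, HLA-F, HRK, IFI27, IFI44L, IFI6, IFIT1, IL6, INSR, IRF9, IVL, KLF4, KRT13, KRT15, KRT16, KRT4, MCL1, MKI67, MMP1, MMP12, NDUFV1, OCLN, OVOL1, PDGFRA, POLD1, PSMB9, RSAD2, SERPINB13, SOX2, SPARC, TAP1, THBS1, TOP2A, TYMS and VIM. The log2 fold changes that turned were all of genes not called. With the GC trend removed they were 0.073 for CCND1, -0.026 for HMGCS1 and 0.039 for ITGB4. CTD-2369P2.12 had 0.0018 with DESeq2 size factors and 0.059 without the block, and TGM1 -0.12 without the block. In the days 1 and 2 term of the fit with separate periods they were -0.072 for CTGF, 0.26 for FAM43A, -9.97 for HIST2H2AA3, -0.13 for HMGCS1, 0.47 for ID1, 0.26 for IGFBP3, 0.044 for IRS2, 0.18 for ITGB4, 0.19 for JUN, 0.14 for PHGDH, -0.32 for POSTN, 0.013 for SCD, 0.26 for SLC2A1, 0.12 for THBD, -0.048 for TIMP3, 0.30 for TM9SF1, 0.029 for TP63 and 0.12 for TXNRD1. With a day pair left out the range was -0.093 to 0.13 for CA9, -0.11 to 0.050 for CCNE2, -0.25 to 0.31 for CTD-2369P2.12, -0.057 to 0.12 for CTGF, -0.037 to 0.024 for DSP, -0.0031 to 0.16 for ERBB2, -1.60 to 1.79 for HIST2H2AA3, -0.014 to 0.084 for HMGCS1, -0.24 to 0.028 for IGFBP3, -0.19 to 0.037 for ITGB4, -0.21 to 0.013 for JUN, -0.022 to 0.37 for KRT19, -0.13 to 0.19 for PDGFRB, -0.024 to 0.32 for POSTN, -0.15 to 0.055 for SLC2A1, -0.039 to 0.44 for TGM1 and -0.059 to 0.056 for TXNRD1.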
